A study of Mus musculus with 21 samples.

Results

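The genes of the major histocompatibility complex (MHC) class II pathway were followed across mouse T cell cultures that had been stimulated acutely or chronically, with melanoma cells in one experiment and with an antioxidant in another. The 8 genes were chosen by name, not by their values: Cd74, H2-Aa, H2-Ab1, H2-Eb1, H2-DMa, H2-DMb1, H2-DMb2 and Ciita. They are 8 of the 13202 genes in the deposited table, and all of them were found there. All 8 were among the 12630 genes that passed the filter on low values, an RPKM (a read count scaled to gene length and sequencing depth) of 1 or more in at least 3 libraries. Cd74, H2-Ab1 and H2-DMa reached 1 RPKM in all 21 libraries, H2-DMb1 and H2-DMb2 in 18, H2-Aa and H2-Eb1 in 14 and Ciita in 10.

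The 21 libraries fell into 7 groups with n = 3 each, all labelled as CD8+ T cells. Polyclonal cells had been purified by negative selection out of the spleen and the inguinal lymph nodes. After 48 h of first stimulation the cells were kept in 10 ng/mL interleukin-2 and harvested on day 8. The acute groups then received no further T cell receptor stimulus, and the chronic groups received it every 48 h. Polyclonal acute and polyclonal chronic cultures were of strain C57BL/6 and were stimulated with plate-bound anti-CD3, with anti-CD28 added at the first stimulation. OT-I acute and OT-I chronic cultures carried a transgenic T cell receptor for an ovalbumin peptide. Both OT-I groups were grown with B16-F10 cells, a C57BL/6 melanoma line, which had been treated with 1 ng/mL interferon-γ to raise class I expression. The peptide was added again in OT-I chronic cultures only. Vehicle acute, vehicle chronic and NAC chronic cultures were C57BL/6 cells stimulated as the polyclonal ones, and NAC chronic cultures had 10 mM N-acetylcysteine (NAC), a thiol antioxidant, from 48 h onwards. The sources used here state neither the age of the animals nor how many animals or cultures lie behind the libraries. The p-values therefore measure only the spread between libraries, which may be technical.

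Class II molecules are dimers of an α and a β chain on the surface of antigen-presenting cells, where they show peptides of ingested proteins to CD4 T cells. B cells, dendritic cells and macrophages make them, and interferon-γ induces them in many other cells, melanoma cells included, through the coactivator CIITA. Mouse T cells are not known for making them in quantity. CIITA does not bind DNA itself but joins the RFX, CREB and NF-Y factors, which sit on the X and Y boxes shared by class II promoters.

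These boxes are shown because they are the sites that CIITA acts through, and the windows at hand hold them in part. RefSeq promoter windows (GRCm38.p6, 250 bases before to 50 after a start) were at hand for 5 of the 8 members, in 6 windows: H2-Aa, H2-Eb1, H2-DMb1, H2-DMb2 and H2-DMa, which has more than 1 start. H2-Ab1, Ciita and Cd74 were not in that table. The stretches below are 70 bases long, are written in the direction of transcription and hold the letters GATTGG of the Y box in capitals. A match to ACNGATG, the end of the X box nearest the gene, is in capitals too. H2-DMb2 lies at chr17:34145108-34145177 (plus strand), H2-DMb1 at chr17:34153079-34153148 (plus strand), H2-Aa at chr17:34287853-34287922 (minus strand) and H2-Eb1 at chr17:34305757-34305826 (plus strand).
H2-DMb2: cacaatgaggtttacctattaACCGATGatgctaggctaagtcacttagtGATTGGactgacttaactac
H2-DMb1: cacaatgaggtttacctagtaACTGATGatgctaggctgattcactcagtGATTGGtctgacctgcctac
H2-Aa: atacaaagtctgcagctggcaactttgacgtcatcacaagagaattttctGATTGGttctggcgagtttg
H2-Eb1: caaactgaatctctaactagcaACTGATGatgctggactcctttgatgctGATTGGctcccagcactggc
The X part began 29 bases before the Y box in H2-DMb2 and H2-DMb1 and 28 bases before it in H2-Eb1. The H2-Aa stretch held no match to ACNGATG. The H2-DMb1 and H2-DMb2 stretches were identical at 61 of 70 bases (87.1%), while every other pair of the 5 members' stretches, H2-DMa included, was identical at 19 to 24 bases. Such short motifs are common. On either strand GATTGG was in 16.11% of all 32851 windows of the table, its core CCAAT, which it holds on the other strand, in 37.41% and ACNGATG in 9.851%. Of the 6 member windows, 5 held GATTGG, 5 held CCAAT and 4 held ACNGATG. The ordered pair, ACNGATG and then GATTGG on the same strand within 40 bases, was in 40 windows (0.122%), 3 of which were the H2-DMb1, H2-DMb2 and H2-Eb1 windows. That pair was chosen after the matches were seen. CCNAGNNAC, the other part of the X box, was in 3 of the 6 member windows and 17.3% of all windows. TTCNNTTTC, a site of interferon regulatory factors, was in 0 of the 6 and in 8.56% of all windows. These matches describe letters and show no binding.

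Reads in the listed genes numbered 5347355 to 15147347 in the polyclonal libraries, 13121180 to 25218890 in the OT-I libraries and 14421378 to 17539278 in the vehicle and NAC libraries. Libraries of a group had a Pearson r of 0.985 to 0.998 across genes. In 3 libraries genes of low expression were raised: 170 genes were under 0.5 RPKM in polyclonal acute 2, against 1303 and 2197 in the other polyclonal acute libraries, 416 in polyclonal chronic 2, against 1670 and 1816, and 150 in OT-I acute 3, against 1047 and 1156. The label of CD8 T cells was checked with Cd8a and Cd4, which encode the coreceptors of the main T cell classes. Cd8a was at 85.2 to 146.2 RPKM in 6 of the groups but at 8.30 to 8.63 RPKM in polyclonal chronic libraries, where Cd4 was at 302.9 to 317.0 RPKM. These libraries therefore went against their label, and CD4 T cell RNA was also present in polyclonal acute libraries, with Cd4 at 64.1 to 69.7 RPKM. In bulk RNA, fewer cells of a type and less RNA per cell cannot be told apart.

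The level of the class II genes differed between experiments and, in polyclonal and OT-I cultures, between acute and chronic groups. Cd74, which encodes the invariant chain that fills the class II groove until peptide is loaded, was the member with the highest mean in polyclonal chronic, OT-I acute and OT-I chronic libraries. It was lowest in vehicle acute libraries (1.56 ± 0.192 RPKM, SD, n = 3) and then rose in level through polyclonal acute (2.97 ± 0.902), vehicle chronic (4.43 ± 0.479) and NAC chronic (11.5 ± 0.233) to OT-I acute (316 ± 8.37), polyclonal chronic (646 ± 70.3) and OT-I chronic (700.1 ± 16.2 RPKM). Neighbours in that order overlapped only at the top, between polyclonal chronic and OT-I chronic. Reads in the 8 members together made up 0.00308% to 0.00362% of listed reads in vehicle acute and vehicle chronic libraries, 0.155% to 0.189% in polyclonal chronic libraries and 0.162% to 0.168% in OT-I chronic libraries.

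**Figure D1:**
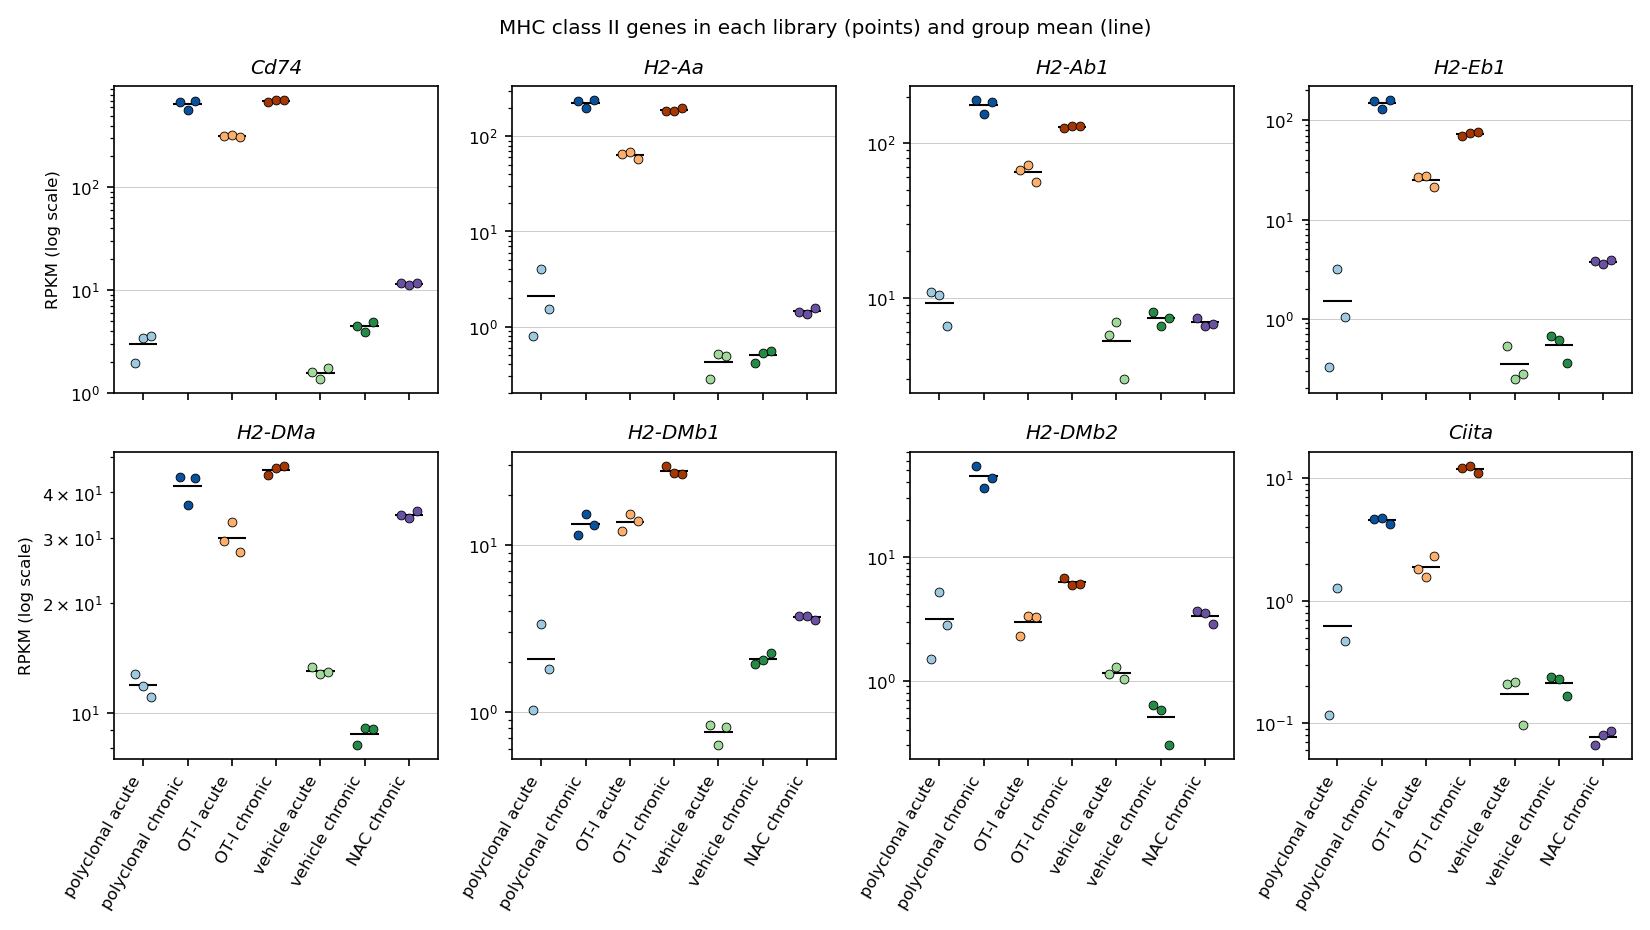
RPKM of each of the 8 genes (vertical axis, log scale, set for each gene) in the 7 groups (horizontal axis). Points are the 3 libraries of a group and lines are group means. Cd74 lies between 567 and 709.5 RPKM in both the polyclonal chronic and OT-I chronic libraries and between 1.35 and 4.91 RPKM in the vehicle ones.

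Repeated anti-CD3 was compared with a single stimulation in polyclonal cultures. All 8 class II genes were higher in polyclonal chronic than in polyclonal acute libraries (limma, adjusted p under 0.05). Of all genes tested, 28.6% were called higher and 35.5% lower. The median log2 change was 3.83 over the members and -0.083 over all genes. The chronic libraries were also those with low Cd8a and high Cd4, and 3 of 4 CD4 T cell markers were higher in them.

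Cd74 and the classical chain genes changed most. Cd74 RPKM was 1.93, 3.44 and 3.54 in the 3 polyclonal acute libraries and 672, 567 and 699.9 in the 3 chronic ones, which stood far apart. That was a log2 change of 7.37 (SE 0.12, limma adjusted p = 7.59e-21), where changes are on the log2(RPKM + 1) scale, which understates those of low genes. H2-Aa, the α chain of the I-A molecule, was at 0.803, 4.02 and 1.53 RPKM in acute and 237, 199 and 241.5 RPKM in chronic libraries, a log2 change of 6.31 (SE 0.21, adjusted p = 7.55e-16). Its acute values differed among themselves, and the highest was in polyclonal acute 2, a library with raised low genes. H2-Eb1, the β chain of the I-E molecule, moved from 0.327, 3.14 and 1.05 to 157.8, 129 and 160.0 RPKM, a log2 change of 6.06 (SE 0.24, adjusted p = 1.02e-14). C57BL/6 mice make no I-E α chain, so H2-Eb1 RNA gives no surface I-E there. H2-Ab1, the β chain of I-A, started higher, at 10.9, 10.5 and 6.55 RPKM, and reached 190.0, 155 and 185.5 RPKM (log2 change 4.13, SE 0.19, adjusted p = 9.11e-14).

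The peptide-loading genes and the coactivator rose by less. H2-DMa encodes the α chain of H2-DM, which swaps the invariant chain fragment for peptide, and its RNA went from 12.8, 11.8 and 11.04 to 44.0, 37.0 and 43.8 RPKM (log2 change 1.72, SE 0.07, adjusted p = 1.39e-14). It was thus already present in acute libraries. Of the 2 β chain genes of H2-DM, H2-DMb2 rose from 1.49, 5.23 and 2.82 to 54.8, 36.2 and 43.1 RPKM (log2 change 3.53, SE 0.22, adjusted p = 1.29e-11). H2-DMb1 rose from 1.03, 3.35 and 1.82 to 11.5, 15.3 and 13.2 RPKM (log2 change 2.29, SE 0.17, adjusted p = 2.92e-10). Ciita stood at 0.117, 1.28 and 0.467 RPKM in acute and 4.64, 4.76 and 4.22 RPKM in chronic libraries (log2 change 1.84, SE 0.17, adjusted p = 9.05e-09). For H2-DMb2, H2-DMb1 and Ciita the highest acute value was again that of polyclonal acute 2. Without polyclonal acute 2, polyclonal chronic 2 and OT-I acute 3, all 8 members were still higher, with log2 changes of 1.80 for H2-DMa to 7.56 for Cd74.

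**Figure D2:**
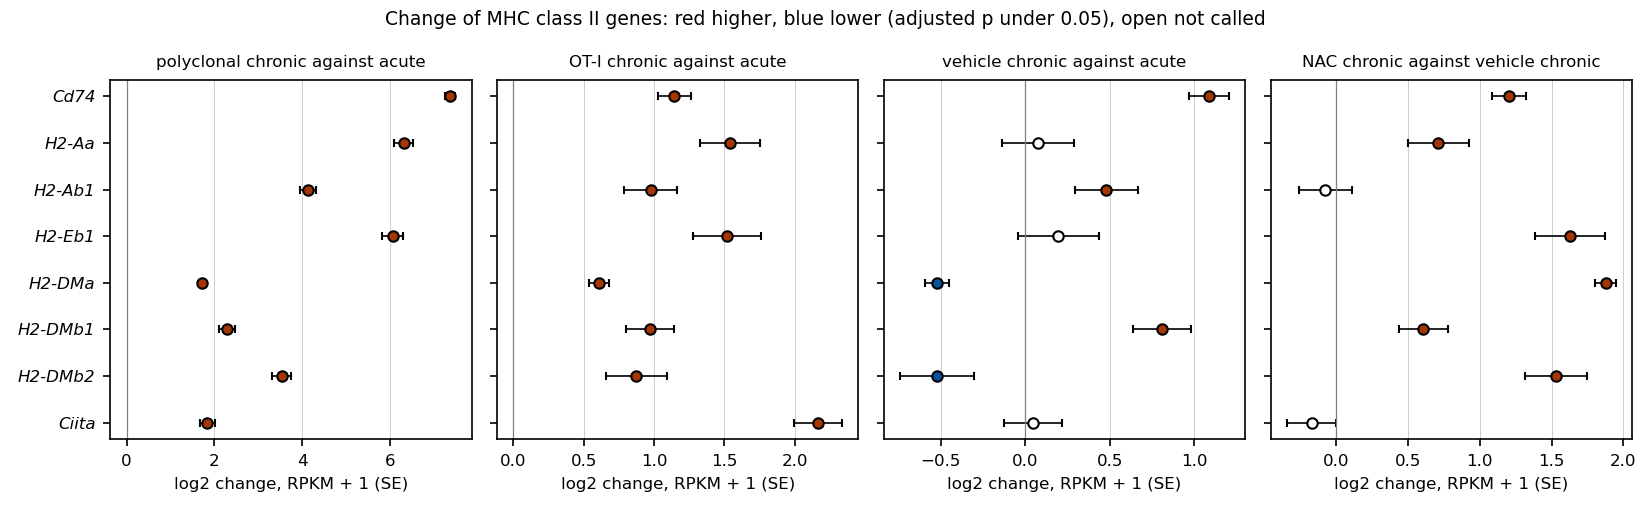
Log2 change of each gene on the RPKM + 1 scale (horizontal axis, set for each panel) with its SE, in 4 comparisons. Filled points were called and open points were not: all 8 genes lie right of 0 in the polyclonal and OT-I panels, and 2 lie left of 0 as called in the vehicle panel.

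B cell RNA moved with the class II genes in polyclonal cultures. All 12 measured markers of B cells were higher in chronic libraries, with a median log2 change of 3.35, and their summed level went from 4.79 to 23.7 RPKM across acute libraries to 722 to 847 RPKM across chronic ones. Mzb1, a chaperone of antibody-making B cells, rose from 1.08 ± 0.497 to 434 ± 49.2 RPKM (log2 change 7.73). Mzb1 and Jchain (104 ± 3.18 RPKM) made up most of the chronic sum, while Pax5 was at 1.97 to 2.78 RPKM. Of 10 measured myeloid and dendritic markers, 4 were higher and 3 lower, and their sum went from 110 to 115 RPKM to 266 to 319 RPKM. Most of that sum was Cst3, a protease inhibitor gene that many cells express, whose mean went from 82.6 to 222 RPKM, while Itgax fell from 14.99 to 2.88 RPKM. Batf3, a factor of some dendritic cells and activated T cells, rose from 1.34 ± 0.675 to 53.6 ± 1.25 RPKM. The part of these cells in the rise of class II RNA was not tested. The summed RPKM of Cd74, H2-Aa, H2-Ab1 and H2-Eb1 was 1.45 to 1.55 times the B cell sum in the 3 chronic libraries and 0.891 to 2.92 times in the acute ones, which overlapped (exact permutation test, two-sided, p = 1). With the acute ratios so far apart, this test cannot show that the ratios were alike.

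Other genes of the pathway were counted from lists. Of 13 measured genes of class II accessory function and processing, 10 were higher and 0 lower in polyclonal chronic libraries. Cd40, the receptor for T cell help, went from 0.367 ± 0.429 to 10.4 ± 1.03 RPKM and legumain (Lgmn), an endosomal protease, from 3.303 ± 1.203 to 27.99 ± 0.698 RPKM. H2-Eb2, a class II β chain gene, and Ifi30, an endosomal thiol reductase, rose by log2 changes of 2.28 and 1.58. Of the 7 factors that bind the X and Y boxes, 1 was higher and 3 were lower. Nfyb, an NF-Y subunit, rose by a log2 change of 0.19, while Creb1 fell by 1.00, Nfyc by 0.43 and Rfxank by 0.38. In the list of 10 interferon-γ genes 5 were higher and 4 lower: the cytokine gene Ifng rose from 7.38 ± 0.9603 to 118 ± 9.94 RPKM and its receptor gene Ifngr1 fell from 389 ± 12.5 to 51.6 ± 2.09 RPKM. Of 8 class I genes, 1 was higher and 5 were lower, and with libraries rescaled to a common median 0 were higher and 2 lower.

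The next comparison asked what repeated addition of the peptide did in OT-I cells grown with melanoma cells. All 8 class II genes were higher in OT-I chronic than in OT-I acute libraries, where 22.4% of all genes were called higher and 36.2% lower. With each library rescaled to a common median, calls over all genes changed from 2827 higher and 4568 lower to 3460 and 3518, and all 8 members were still higher. The median log2 change was 1.06 over the members and -0.115 over all genes.

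The order of the members differed from that in polyclonal cultures, since Ciita changed most. Ciita was at 1.82, 1.55 and 2.33 RPKM in OT-I acute and 12.1, 12.7 and 11.02 RPKM in OT-I chronic libraries (log2 change 2.16, SE 0.17, adjusted p = 1.69e-09). Cd74 was already at 314, 325 and 309 RPKM in OT-I acute and reached 681, 709.5 and 709.3 RPKM in OT-I chronic libraries (log2 change 1.14, SE 0.12, adjusted p = 6.30e-08). Both groups were tight, with no library near the other group. H2-Aa went from 65.5, 68.7 and 58.4 to 184, 183 and 197 RPKM (log2 change 1.54, SE 0.21, adjusted p = 3.84e-06). H2-Eb1 went from 27.1, 27.2 and 21.2 to 69.9, 74.6 and 75.8 RPKM (log2 change 1.52, SE 0.24, adjusted p = 2.05e-05). In these genes and in H2-Ab1 and H2-DMa the lowest acute value was that of OT-I acute 3. H2-Ab1 went from 66.6, 71.8 and 56.4 to 126, 129 and 129 RPKM (log2 change 0.97, SE 0.19, adjusted p = 0.000171).

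H2-DMa rose least, and the ratios of mean RPKM were 2.02 for H2-DMb1 and 2.09 for H2-DMb2, beside 1.97 for H2-Ab1. H2-DMa stood at 29.5, 33.1 and 27.5 RPKM in acute and at 44.7, 46.5 and 47.4 RPKM in chronic libraries (log2 change 0.61, SE 0.07, adjusted p = 3.32e-07). H2-DMb1 went from 12.1, 15.3 and 13.9 to 29.8, 26.9 and 26.7 RPKM (log2 change 0.97, SE 0.17, adjusted p = 6.95e-05). H2-DMb2 stayed low, at 2.32, 3.32 and 3.30 RPKM in acute and 6.73, 5.90 and 6.09 RPKM in chronic libraries (log2 change 0.87, SE 0.22, adjusted p = 0.00188). Without the 3 libraries with raised low genes all 8 were still higher, with log2 changes of 0.55 for H2-DMa to 2.27 for Ciita.

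Most melanocyte markers and most B cell markers moved in opposite directions here. Of 12 melanocyte markers, 9 fell and 0 rose with repeated peptide, and their sum went from 8092 to 8382 RPKM in acute to 4692 to 4813 RPKM in chronic libraries. Pmel, a protein of pigment granules, fell by a log2 change of 1.57. The 3 markers not called were Mlana (means of 1009 and 929 RPKM), Gpnmb (712 and 736 RPKM) and Sox10 (130 and 150 RPKM). Of 12 B cell markers, 10 were higher and 0 lower, and their sum went from 23.8 to 31.8 RPKM to 417 to 429 RPKM, most of it from Jchain (211 ± 2.88 RPKM) and Mzb1 (155 ± 3.596 RPKM), both known from antibody-making cells. Pax5, the B cell identity factor, was at 1.04 to 1.23 RPKM. The 3 measured natural killer markers were higher too, as were 4 of 10 myeloid ones, whose sum went from 273 to 361 RPKM to 742 to 807 RPKM. Cst3 made up most of it, with means of 261 and 673 RPKM. The part of any of these cells in the class II change was not tested.

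Class II RNA in OT-I acute libraries stood beside little B cell RNA. Cd74 made up most of the summed RPKM of Cd74, H2-Aa, H2-Ab1 and H2-Eb1. Its mean was 316 of 470 RPKM in OT-I acute, 700.1 of 1090 in OT-I chronic and 646 of 1198 in polyclonal chronic libraries. The sum of these genes was 13.99 to 19.9 times the B cell sum in OT-I acute libraries. It was 2.52 to 2.63 times the B cell sum in OT-I chronic and 1.45 to 1.55 times in polyclonal chronic libraries. None of these groups overlapped (exact permutation test, two-sided, p = 0.1 for each pair, the smallest that 3 against 3 allows). Set against the melanocyte sum instead, class II RNA was 0.0545 to 0.0588 times in OT-I acute and 0.226 to 0.233 times in OT-I chronic libraries, which did not overlap either (p = 0.1 by the same exact test). Cd74 alone was 2.40 to 2.45 times the melanocyte marker Sox10 in OT-I acute and 4.56 to 4.77 times in OT-I chronic libraries. The ratio thus depended on the markers chosen, and the source of the class II RNA was not tested.

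**Figure D3:**
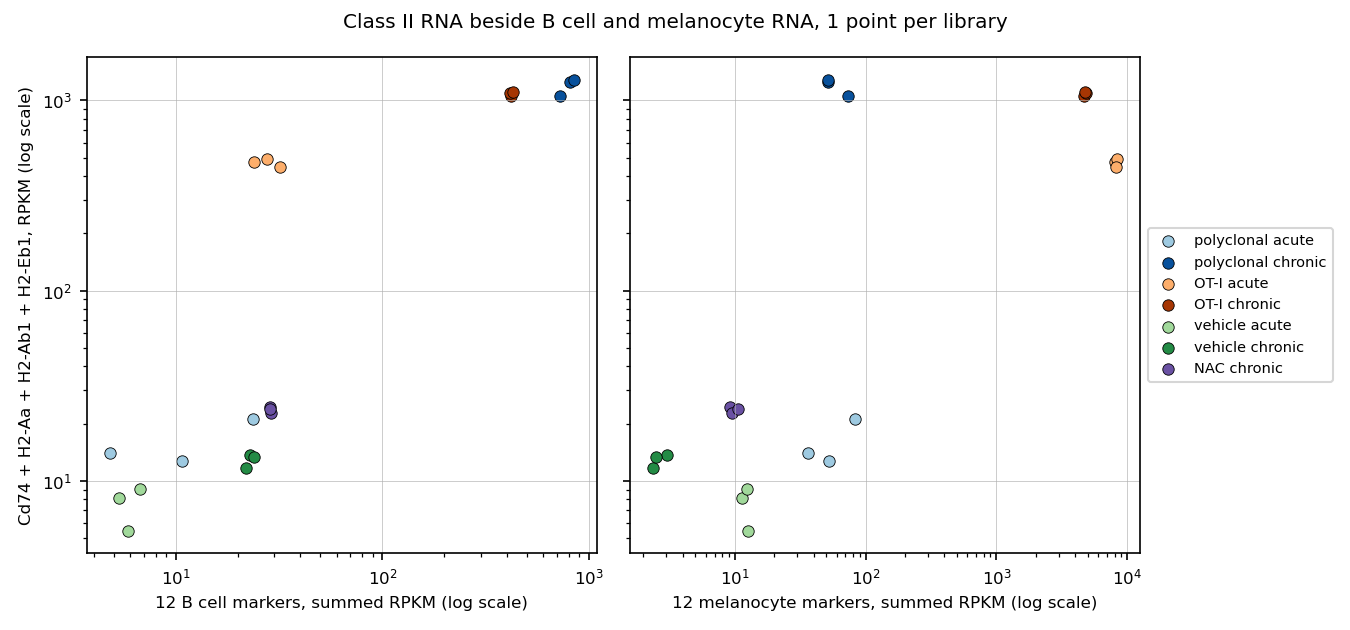
Summed RPKM of Cd74, H2-Aa, H2-Ab1 and H2-Eb1 (vertical axis, log scale) against the summed RPKM of 12 B cell markers (left) and 12 melanocyte markers (right), both on log scales, with 1 point per library. The OT-I acute libraries have 445 to 493 RPKM of class II RNA beside 23.8 to 31.8 RPKM of B cell markers, and polyclonal chronic libraries have 1050 to 1287 RPKM beside 51.3 to 73.4 RPKM of melanocyte markers.

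Interferon-γ genes in the OT-I libraries were mixed. Of the list of 10, 4 were higher and 4 lower. Ifng rose from 6.82 ± 0.635 to 632 ± 11.9 RPKM (log2 change 6.34), and Irf8 and Irf1, interferon regulatory factors, rose by 1.98 and 1.15 on the log2 scale, while Ifngr1 fell by 1.33. Of 13 accessory genes 4 were higher and 4 lower, with the costimulatory ligand Cd80 at a log2 change of 1.36 and its relative Cd86 at -1.22. H2-Oa, the α chain of the H2-DM inhibitor H2-O, fell by 0.90, and Ifi30 rose by 0.68. Of the 7 box-binding factors, Rfx5 rose by 0.28, and 4 were lower, of which Creb1 fell by 0.60, Rfxank by 0.54 and Rfxap by 0.50. Of 8 class I genes, 1 was higher and 3 were lower (1 and 1 with a common median), and Tapbp, the peptide-loading chaperone tapasin, rose by 0.71 while Tap1, a peptide transporter chain, fell by 0.38.

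Chronic stimulation with vehicle gave a mixed change. In vehicle chronic against vehicle acute libraries 3 class II genes were higher and 2 were lower, where 24.5% of all genes were called higher and 34.4% lower. The median log2 change was 0.136 over the members and -0.032 over all genes. Cd74 was at 1.60, 1.35 and 1.72 RPKM in acute and 4.43, 3.95 and 4.91 RPKM in chronic libraries (log2 change 1.09, SE 0.12, adjusted p = 8.77e-08), on 28 to 42 and 98 to 117 reads. H2-DMb1 went from 0.833, 0.636 and 0.814 to 1.95, 2.04 and 2.26 RPKM (log2 change 0.81, SE 0.17, adjusted p = 0.000377). Neither gene's groups overlapped. H2-Ab1 was at 5.73, 7.02 and 2.97 RPKM and then at 8.09, 6.55 and 7.46 RPKM, and the groups overlapped (log2 change 0.48, SE 0.19, adjusted p = 0.0337). Its call was lost without vehicle acute 3 (log2 change 0.18, adjusted p = 0.327), without vehicle chronic 1 or 3, with only the compared groups in the fit and with voom on recovered reads.

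The 2 genes that fell were both of H2-DM. H2-DMa went from 13.4, 12.8 and 12.9 to 8.17, 9.08 and 9.06 RPKM and fell by 0.52 on the log2 scale (SE 0.07, adjusted p = 1.84e-06). H2-DMb2 went from 1.13, 1.30 and 1.03 to 0.638, 0.580 and 0.302 RPKM, on 14 to 15 and 4 to 8 reads (log2 change -0.52, SE 0.22, adjusted p = 0.0456). This call was lost when any of the 6 libraries was left out (adjusted p = 0.0528 to 0.159). The remaining members were low. H2-Aa stood at 0.278, 0.509 and 0.489 RPKM in acute and 0.411, 0.533 and 0.555 RPKM in chronic libraries (log2 change 0.08, SE 0.21, adjusted p = 0.815). H2-Eb1 stood at 0.534, 0.245 and 0.278 and at 0.676, 0.615 and 0.356 RPKM (log2 change 0.20, SE 0.24, adjusted p = 0.527). Ciita was at 0.208, 0.216 and 0.0969 and at 0.240, 0.228 and 0.168 RPKM (log2 change 0.05, SE 0.17, adjusted p = 0.865). With 5 to 24 reads a library, small changes in these 3 genes were not detectable at this depth.

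Some defining B cell markers were not seen in the vehicle chronic libraries. Ms4a1 and Pax5 were listed at 0 in all vehicle chronic libraries. The B cell sum still went from 5.32 to 6.70 RPKM to 22.0 to 23.8 RPKM, but 16.9 to 18.5 RPKM of the latter was Sdc1, a proteoglycan gene that other cells express too. Of 12 B cell markers, 2 were higher and 1 lower. Of 10 myeloid markers, 6 were higher and 1 lower, and their sum went from 108 to 122 RPKM to 244 to 254 RPKM, of which Cst3 had means of 94.8 and 220.3 RPKM. The dendritic factor gene Zbtb46 rose from 0.0623 ± 0.0239 to 1.96 ± 0.295 RPKM. The part of myeloid cells in the rise of Cd74 was not tested. Cd8a was at 85.2 to 88.7 RPKM in acute and 143.6 to 146.2 RPKM in chronic libraries. Of 4 CD4 T cell markers, 1 was higher and 2 were lower. Cd4 went from 13.0 to 14.7 RPKM in acute to 2.16 to 2.63 RPKM in chronic libraries (log2 change -2.14), and Cd40lg fell by 1.81.

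Around the class II genes, most of the pathway fell with vehicle. Of 13 accessory genes 3 were higher and 7 lower: H2-Ob, the β chain of H2-O, went from 2.02 ± 0.0574 to 0.0812 ± 0.0323 RPKM, and Cd86 from 1.502 ± 0.131 to 0.0478 ± 0.0258 RPKM. The lysosomal protease Ctss, which cuts the invariant chain, fell by 1.18, and Ctsd, another protease, rose by 1.00. Of the 7 box-binding factors 0 were higher and 4 lower (3 with a common median), with Nfyc at a log2 change of -0.77 and Creb1 at -0.53. All 8 class I genes fell, with Psmb9 of the immunoproteasome at a log2 change of -1.28 and Tap1 at -0.87. Of the 10 interferon-γ genes 2 were higher and 8 lower: Ifng rose from 4.67 ± 0.538 to 430.5 ± 9.195 RPKM and Irf8 rose by 3.65, but Nlrc5, the coactivator of class I genes, fell by 2.24 and Ifngr2 by 1.65.

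The next comparison asked what NAC did in chronically stimulated cells. NAC chronic libraries had higher RNA of 6 class II genes than vehicle chronic libraries, and 0 were called lower. Of all genes, 38.5% were called higher and 22.6% lower. With a common median, 3380 genes were higher and 4114 lower in place of 4862 and 2854, and 6 members were still higher and 0 lower. The median log2 change was 0.959 over the members and 0.082 over all genes.

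H2-DMa, H2-Eb1 and H2-DMb2 changed most, and their order depended on the scale. By the ratio of mean RPKM H2-Eb1 rose 6.87-fold, H2-DMb2 6.61-fold and H2-DMa 3.97-fold, while H2-DMa led on the log2(RPKM + 1) scale. H2-DMa, one of the genes that fell under chronic stimulation, stood at 8.17, 9.08 and 9.06 RPKM with vehicle and 34.7, 34.2 and 35.6 RPKM with NAC (log2 change 1.88, SE 0.07, adjusted p = 8.46e-15), which is also above vehicle acute libraries (12.8 to 13.4 RPKM). H2-Eb1 went from 0.676, 0.615 and 0.356 to 3.86, 3.53 and 3.93 RPKM (log2 change 1.63, SE 0.24, adjusted p = 7.00e-06), on 10 to 18 and 85 to 101 reads. H2-DMb2 went from 0.638, 0.580 and 0.302 to 3.63, 3.53 and 2.89 RPKM (log2 change 1.53, SE 0.22, adjusted p = 4.13e-06). In all 3 genes the NAC libraries stood together and well above the others.

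Cd74 rose further, from 4.43, 3.95 and 4.91 to 11.6, 11.2 and 11.7 RPKM (log2 change 1.21, SE 0.12, adjusted p = 2.24e-08). H2-Aa went from 0.411, 0.533 and 0.555 to 1.43, 1.36 and 1.58 RPKM (log2 change 0.71, SE 0.21, adjusted p = 0.00676), and this call was lost with voom on recovered reads (adjusted p = 0.109). H2-DMb1 went from 1.95, 2.04 and 2.26 to 3.77, 3.78 and 3.54 RPKM (log2 change 0.61, SE 0.17, adjusted p = 0.00447). The I-A β chain gene was not called, and no test compared its change with that of the α chain gene H2-Aa. H2-Ab1 was at 8.09, 6.55 and 7.46 RPKM with vehicle and 7.46, 6.57 and 6.80 RPKM with NAC (log2 change -0.07, SE 0.19, adjusted p = 0.789).

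The coactivator gene did not go up with its targets. Ciita was at 0.240, 0.228 and 0.168 RPKM with vehicle and at 0.0664, 0.0809 and 0.0866 RPKM with NAC, on 17 to 24 against 6 to 8 reads, and the groups did not overlap. Its log2 change of -0.17 (SE 0.17, adjusted p = 0.427) was not called, but a fit of only the compared groups called it lower (adjusted p = 0.00156). In no NAC library was Ciita above its lowest vehicle chronic value.

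Other genes of the pathway moved in both directions with NAC, mostly upwards. Of 13 accessory genes 6 were higher and 4 lower. H2-Oa went from 3.29 ± 0.844 to 30.8 ± 2.07 RPKM and H2-Ob from 0.0812 ± 0.0323 to 4.28 ± 0.219 RPKM, so both chains of the H2-DM inhibitor H2-O rose beside H2-DM itself. Ctss rose by 1.65 and Cd86 by 1.29 on the log2 scale. Ctsd fell by 1.15, the accessory gene March8 by 0.82, Ifi30 by 0.71 and Lgmn by 0.53. All 7 box-binding factors were called higher, led by Rfx5 at 1.16, Creb1 at 0.71, Nfya at 0.59 and Rfxank at 0.55. With a common median only these 4 were called and Rfxap, Nfyb and Nfyc were not. All 8 class I genes were called higher (6 with a common median, without Tap2 and Tapbp), led by Psmb9 at 1.46 and Tap1 at 1.17. Of the 10 interferon-γ genes 7 were higher and 3 lower. Nlrc5 rose by 2.31 and Ifngr2 by 1.72, while Ifng fell from 430.5 ± 9.195 to 118 ± 3.91 RPKM. These values and those of vehicle chronic against vehicle acute share the vehicle chronic libraries.

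**Figure D4:**
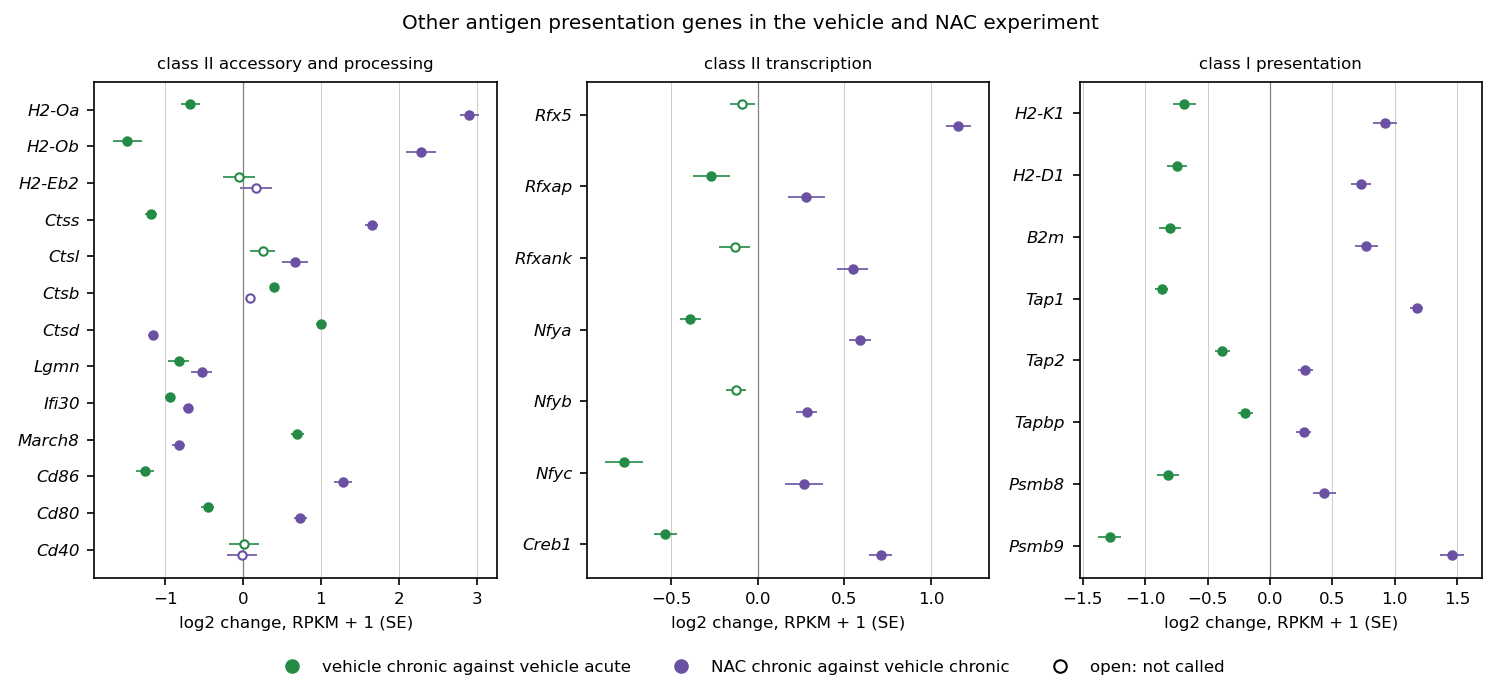
Log2 change on the RPKM + 1 scale (horizontal axis) with its SE for 13 accessory genes, 7 box-binding factors and 8 class I genes, in vehicle chronic against vehicle acute (green) and NAC chronic against vehicle chronic (purple), where open points were not called. All 8 class I genes are left of 0 in green and right of 0 in purple, and both comparisons use the vehicle chronic libraries.

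Markers of other cells changed in part under NAC. Blk was listed at 0 in all NAC libraries, and the B cell sum was 28.5 to 29.0 RPKM, of which 15.6 to 16.8 RPKM was Sdc1. Of 12 B cell markers 2 were higher and 0 lower: Cd79b, a chain of the B cell receptor, rose from 2.73 ± 0.653 to 8.57 ± 0.528 RPKM and its partner Cd79a from 0.844 ± 0.212 to 1.88 ± 0.243 RPKM. Of 10 myeloid markers 2 were higher and 3 lower. Itgax, the integrin of dendritic and some T cells, rose from 7.52 ± 0.378 to 26.4 ± 0.749 RPKM, while Xcr1, a chemokine receptor of dendritic cells, fell by 1.87, and the myeloid sum was 261 to 267 RPKM, with a Cst3 mean of 226 RPKM. All 4 CD4 T cell markers were called higher (3 with a common median), and Cd4 rose from 2.39 ± 0.236 to 47.9 ± 1.12 RPKM. The part of these cells in the class II changes was not tested.

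The effect of chronic stimulation on class II genes was larger in polyclonal than in vehicle cultures, though both were C57BL/6 cells given plate-bound anti-CD3. The difference of the 2 effects was positive for all 8 members, where 27.3% of all genes were called higher and 25.1% lower in this test. It was 6.28 for Cd74 (SE 0.17, adjusted p = 5.15e-17), 6.24 for H2-Aa (SE 0.30, adjusted p = 6.68e-13) and 1.48 for H2-DMb1 (SE 0.24, adjusted p = 3.27e-05), the smallest. Experiment, batch and cell makeup cannot be told apart in this comparison.

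OT-I against vehicle cultures gave 5 members with a larger change in OT-I cultures, where 27.4% of all genes were called higher and 31.1% lower. The difference was 2.12 for Ciita (SE 0.24, adjusted p = 2.82e-07), and it was called for H2-Aa, H2-DMb2, H2-Eb1 and H2-DMa as well. It was 0.06 for Cd74 (SE 0.17, adjusted p = 0.777), 0.49 for H2-Ab1 (SE 0.27, adjusted p = 0.117) and 0.16 for H2-DMb1 (SE 0.24, adjusted p = 0.595), none of which was called. With voom 3 members were called, without H2-Aa and H2-Eb1, and H2-Eb1 also lost its call at a pseudocount of 0.1 (1.01, adjusted p = 0.166). H2-Ab1 was called without vehicle acute 3 (0.79, adjusted p = 0.00252). In this comparison too, strain, melanoma cells, experiment and cell makeup cannot be told apart.

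OT-I against polyclonal cultures gave 7 members with a smaller change in OT-I cultures, where 29.2% of all genes were called lower and 26.6% higher. The difference was -6.23 for Cd74 (SE 0.17, adjusted p = 9.41e-17) and -1.12 for H2-DMa (SE 0.10, adjusted p = 7.34e-09). Ciita, at 0.33 (SE 0.24, adjusted p = 0.265), was not called. It was called higher without polyclonal acute 1 (0.57, adjusted p = 0.0209) and lower with voom on recovered reads (-1.18, adjusted p = 0.0481), so its direction changed with the test. Cd74 already differed between the acute groups (means of 316 RPKM in OT-I and 2.97 RPKM in polyclonal libraries). Its chronic groups overlapped, at means of 700.1 and 646 RPKM. These differences use the same libraries as the comparisons above. Strain, melanoma cells, experiment and cell makeup cannot be told apart in them.

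The acute groups differed in class II RNA as well. All 8 members were higher in OT-I acute than in vehicle acute libraries, where 47.1% of all genes were called higher and 30.6% lower. Log2 changes were 6.96 for Cd74 (SE 0.12, adjusted p = 1.84e-20), 1.30 for Ciita (SE 0.17, adjusted p = 8.47e-07) and 0.88 for H2-DMb2 (SE 0.22, adjusted p = 0.00112). With a common median, which shifted the median of all genes by -0.26 in this test and turned the calls from 5943 higher and 3859 lower to 4309 and 5510, all 8 were still higher. Strain, melanoma cells and experiment cannot be told apart here.

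Between polyclonal acute and vehicle acute libraries 7 members were called higher, where 35.9% of all genes were called higher and 28.6% lower. Log2 changes included 1.00 for H2-Aa (SE 0.21, adjusted p = 0.000497), 0.86 for H2-DMb2 (SE 0.22, adjusted p = 0.00221) and 0.76 for H2-Ab1 (SE 0.19, adjusted p = 0.00180). H2-DMa was not called (log2 change -0.12, SE 0.07, adjusted p = 0.128). Without the libraries with raised low genes H2-Eb1 (0.29, adjusted p = 0.0596) and Ciita (0.13, adjusted p = 0.266) lost their call. Ciita also lost it without polyclonal acute 3 or any of the vehicle acute libraries, and with voom 1 member was called, H2-Ab1. Melanocyte RNA was present in the polyclonal libraries too. Tyrp1, a pigment enzyme, was at 5.21, 15.3 and 8.47 RPKM in polyclonal acute libraries, which is 0.229%, 0.673% and 0.371% of its OT-I acute mean, and was listed at 0 in all vehicle acute libraries. Such shares differed between melanocyte markers. In polyclonal acute libraries those of Dct were below those of Tyrp1. Sox10 had shares of 0.376%, 1.06% and 0.594%, Mlana 0.520%, 1.45% and 0.752% and Gpnmb 1.41%, 2.11% and 1.75%. Gpnmb was also at 0.856% to 1.05% in vehicle acute libraries. Cd74 in polyclonal acute libraries was at 0.611%, 1.09% and 1.12% of its OT-I acute mean. The shares of the other members were higher, from 1.25% to 6.27% for H2-Aa and 1.30% to 12.5% for H2-Eb1 up to 36.7% to 42.5% for H2-DMa and 49.997% to 176% for H2-DMb2. The part of melanocyte RNA in these calls was not tested.

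The 2 β chain genes of H2-DM were used in different shares. H2-DMb2 made up 59.0% to 61.0% of the summed RPKM of H2-DMb1 and H2-DMb2 in polyclonal acute libraries and 70.3% to 82.7% in polyclonal chronic ones. It made up 16.1% to 19.1% in OT-I acute and 17.995% to 18.6% in OT-I chronic libraries, which overlapped (exact permutation test, two-sided, p = 0.6). The share was 56.0% to 67.1% in vehicle acute, 11.8% to 24.6% in vehicle chronic and 44.96% to 49.0% in NAC chronic libraries. The vehicle chronic group overlapped neither the vehicle acute nor the NAC chronic group (p = 0.1 for each by the same exact test, the smallest that 3 against 3 allows). The 2 genes are close copies: of 50-base stretches of their transcripts, 22.7% of those of H2-DMb1 and 24.8% of those of H2-DMb2 also occur in another gene. Those of H2-DMb1 occur in H2-DMb2. The sources used here do not say how reads that match both were counted, so the levels of both genes and this share are uncertain. In the vehicle libraries the share also rests on few reads, 4 to 15 for H2-DMb2 and 12 to 49 for H2-DMb1. The same holds for polyclonal acute libraries, with 15 to 22 for H2-DMb2 and 17 to 23 for H2-DMb1.

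**Figure D5:**
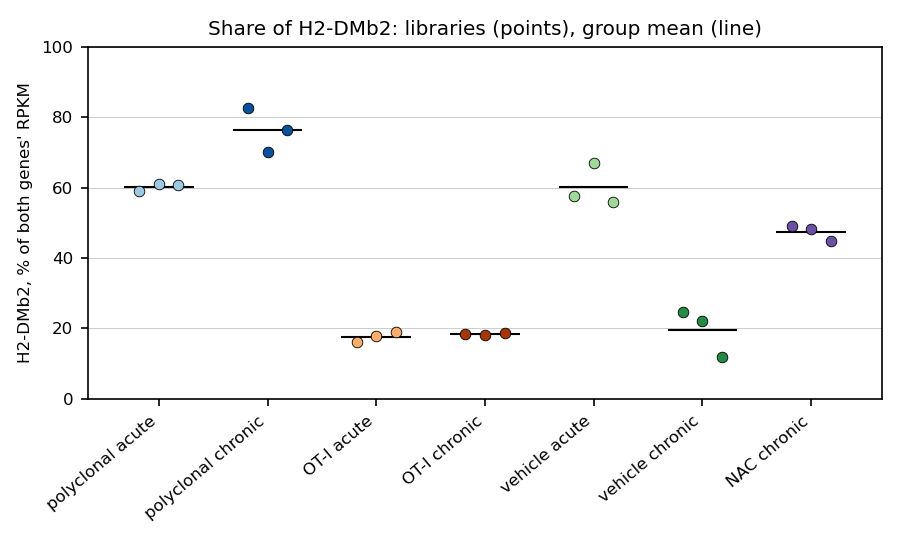
Share of H2-DMb2 in the summed RPKM of H2-DMb1 and H2-DMb2 (vertical axis, percent) in the 7 groups, with points for the 3 libraries of a group and lines for group means. The OT-I and vehicle chronic libraries lie between 11.8% and 24.6%, and the polyclonal, vehicle acute and NAC chronic ones between 44.96% and 82.7%.

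The members varied together to different degrees across the 21 libraries, which share groups and experiments. Pearson r of log2(RPKM + 1) was 0.968 to 0.988 between pairs of Cd74, H2-Aa, H2-Ab1 and H2-Eb1. H2-DMb1 had r of 0.919 to 0.969 with these 4 genes, and Ciita 0.884 to 0.923. The lowest r among members was 0.630, between H2-DMb1 and H2-DMb2. Outside the members, 8 genes were most like the mean of Cd74, H2-Aa, H2-Ab1 and H2-Eb1. They were Sdc4 (r of 0.985), Fscn1 (0.983), Ctsh (0.977), Mreg (0.975), Erc1 (0.973), Selm (0.971), Bcam (0.968) and Trp73 (0.967). Sdc4, a cell surface proteoglycan, averaged 35.9 RPKM in polyclonal chronic, 20.9 in OT-I acute and 37.9 in OT-I chronic libraries, but 0.297 to 1.67 RPKM in the other 4 groups. Fscn1, the actin bundler fascin, averaged 19.2 RPKM in polyclonal chronic libraries and 11.9 RPKM in both OT-I groups. Among B cell markers r to the same mean ran from 0.282 for Sdc1 to 0.943 for Jchain, and among the box-binding factors from -0.635 for Creb1 to -0.112 for Rfx5. These r describe 21 points that are not independent, so no p is given.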

How the data were processed

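Poly(A) RNA was sequenced from 21 libraries, per the labels' protocols, after Trizol extraction and with a NEBNext Ultra kit. The authors deposited 1 table of RPKM values, and HTSeq, edgeR, bcl2fastq 2.17 and mm9 as the build are listed, without their roles, in the submitters' processing notes. The sources used here name no aligner, annotation, strand setting or gene filter, so antisense and overlapping genes cannot be told apart. Coordinates of the promoter stretches are of GRCm38.p6, not mm9, and no mm9 coordinate is printed.

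Whole reads were recovered from the RPKM of all 13202 genes (100% of values within 0.001 reads). Values were taken as log2(RPKM + 1), and genes at RPKM 1 or more in at least 3 libraries (12630) entered 1 fit of limma 3.58.1 (R 4.3.3), in which each group had its mean, the prior was trended and 14 residual degrees of freedom remained. Genes were called at p under 0.05 after Benjamini-Hochberg adjustment across all of them, two-sided. The fit and the read recovery were tested on simulated data. For the fit, the simulated spread beyond sampling noise was the same in every gene and group. Only the compared groups entered it, so it does not show how reliable the calls made here are. No 2 libraries of a group were as close as sampling noise alone would make them (chi-square, divided by genes, 1.52 to 54.6), and each counted as 1 replicate. Same-numbered polyclonal libraries deviated together (r of 0.168 to 0.629, a hint from the data, not the labels), but acute 1 with chronic 3 had r = 0.569, above the 0.446 of its own number, and acute 3 with chronic 1 had 0.134. Those of the other experiments did not (r of -0.167 to 0.079). The replicate block changed no polyclonal call of a member.

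All 8 members are named. Of the other antigen presentation lists up to 4 called genes per comparison were taken by largest change, with some left out, and the 8 most alike genes by Pearson r. Under NAC, the accessory genes called lower were named as well, and so were genes of these lists that lost their call with a common median. Marker genes were named as examples after their values were seen. The members and lists were chosen with earlier results of these data known. Alternatives were a pseudocount of 0.1, no filter or RPKM 5, a common median, only the compared groups, the replicate block, voom on recovered reads, leaving out each library and 1 mismatch in motifs. Leaving out 3 libraries and the motif pair were added after the data were seen. Some marker, pathway and motif results are not reported here.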

Additional observations from a re-analysis of the deposited data

Results flagged for a closer look

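Chronic stimulation had different effects on class II genes in the 3 experiments, by the limma test of the difference itself (log2 scale, adjusted p under 0.05). Polyclonal minus vehicle cultures gave 6.28 for Cd74, 6.24 for H2-Aa, 5.86 for H2-Eb1, 4.05 for H2-DMb2, 3.65 for H2-Ab1, 2.25 for H2-DMa, 1.79 for Ciita and 1.48 for H2-DMb1. OT-I minus vehicle cultures gave 2.12 for Ciita, 1.46 for H2-Aa, 1.39 for H2-DMb2, 1.32 for H2-Eb1 and 1.13 for H2-DMa. OT-I minus polyclonal cultures gave -6.23 for Cd74, -4.78 for H2-Aa, -4.54 for H2-Eb1, -3.16 for H2-Ab1, -2.66 for H2-DMb2, -1.32 for H2-DMb1 and -1.12 for H2-DMa. B cell, melanocyte and CD4 T cell RNA also differed between these experiments, and their part in these differences was not tested.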

How the results depend on the processing

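Under every alternative run, all 8 members stayed higher in the polyclonal and OT-I comparisons, in polyclonal minus vehicle cultures and in OT-I acute against vehicle acute libraries. Among single-gene values under alternatives, 1099 stayed called or not called as before, 33 lost the call and 3 gained it. The 1 that reversed was Ciita in OT-I minus polyclonal cultures, at -1.18 with voom. Direction was compared only where a value was called. Some values that were never called changed sign, such as Cd74 in OT-I minus vehicle cultures (0.06, and -0.31 at a pseudocount of 0.1). In vehicle cultures 1 member, H2-DMa, was lower, in place of 2, with voom, and likewise under the replicate block, where the pairing of numbers is not borne out and H2-DMb2 had adjusted p = 0.0661. The block changed no other member call. Leaving out 1 library gave 1 member lower in vehicle cultures each time, and 0 to 1 higher in OT-I minus polyclonal cultures. With only the compared groups 1 member was lower under NAC. With voom 3 members were higher in OT-I minus vehicle cultures and 1 in polyclonal acute against vehicle acute libraries. With 1 mismatch, CCNAGNNAC was in 6 member windows and TTCNNTTTC in 4. The causes were not tested. Low read numbers of H2-Aa, H2-Eb1, H2-DMb2 and Ciita limit what the vehicle comparison can show.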
